A study of Mus musculus with 14 samples.

Results

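The 10 genes described here code for proteins of the tight junction or for a scaffold beneath it: the claudins Cldn1, Cldn3, Cldn4, Cldn5, Cldn6, Cldn7 and Cldn8, occludin (Ocln), zonula occludens protein ZO-1 (Tjp1) and junctional adhesion molecule A (F11r). They were chosen by gene symbol from the 24054 genes of each table, and all 10 were found in all 14 libraries. RNA was measured by low-input RNA-seq in 6 groups of sorted mouse cells, in order to follow the transcription factor Foxa2 during endoderm differentiation of embryonic stem cells (ESCs). In d0con and d3con one Foxa2 allele (Foxa2-Venus-KO/+) has its coding region replaced by the nuclear reporter H2B-Venus, and in d0ko and d3ko both alleles do (Foxa2-Venus-KO/Foxa2-Venus-KO), so the controls also carry 1 disrupted allele. The d0 cells (n = 2 per genotype) were ESCs grown on red-fluorescent, mitomycin-treated fibroblasts without LIF and sorted as Cherry-negative. The d3 cells (n = 3 per genotype) had been cultured for 3 days with 12 ng/ml Activin A on Wnt3a-secreting feeders and were sorted as Venus-positive in both genotypes. The d2-FVFn and d2-FVFp cells (n = 2 each) come from another ESC line, homozygous for a Sox17-Cherry reporter, in which doxycycline switches on a Foxa2-Venus fusion. Both had 40 ng/ml doxycycline for 48 hours in medium with LIF and serum, without feeders, and were sorted as Venus-negative and Venus-positive, so the negative cells were not free of doxycycline. Each genotype is represented by 2 ESC clones, and replicates 1 and 3 of a day 3 group share a clone, while the doxycycline samples come from 1 line.

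Tight junctions seal the space between neighbouring epithelial cells. Claudins span the membrane and form the strands that set which ions pass, occludin and its relative tricellulin (Marveld2) sit in the same strands, F11r is an adhesion molecule of the immunoglobulin family, and Tjp1 ties the strands to the actin cytoskeleton. ESCs and definitive endoderm both have epithelial character, while mesoderm cells give it up. Among the claudins, Cldn6 is known for its expression in embryonic epithelia, Cldn3, Cldn4 and Cldn7 are widespread in simple epithelia, Cldn1 is needed for the barrier of the skin, Cldn5 is the main claudin of blood vessel endothelium and Cldn8 is found in the distal nephron.

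The genes lie apart in the genome, with one pair of members close together (RefSeq annotation of GRCm38.p6, the assembly that mm10 names). Cldn4 (chr5:134945123-134946934, minus strand) and Cldn3 (chr5:134986214-134987476, plus strand) are 39279 bases apart with 0 annotated genes between them. Cldn6 is at chr17:23679348-23682446 (plus strand), 137 bases from Cldn9, and Cldn7 at chr11:69964779-69967886 (plus strand). Ocln is at chr13:100496504-100552718 (minus strand), 43238 bases from Marveld2 with 1 annotated gene between them. F11r is at chr1:171437561-171464593 (plus strand) and Tjp1 at chr7:65296165-65527850 (minus strand). The last bases of Cldn3 overlap the long non-coding RNA gene Wbscr25, and Ocln holds a small nucleolar RNA gene, and without strand information reads of such overlaps cannot be told apart.

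The sequences upstream of the 4 members with the widest range between groups are printed because Cldn6, Cldn7 and Ocln were lower and Cldn4 was higher in d3ko than in d3con. They are RefSeq sequences in GRCm38.p6, read 5′ to 3′ on the strand of the gene, at chr17:23679115-23679248 for Cldn6, chr11:69964529-69964778 for Cldn7, chr13:100552719-100552968 for Ocln and chr5:134946935-134947184 for Cldn4. Each stops before the earliest start of its gene in RefSeq or GENCODE (for Cldn6 a GENCODE start upstream of the RefSeq one), which leaves 134 bases for Cldn6 and 250 for the others. Capitals mark the motifs found, which are the GC box (GGGCGG, or CCGCCC on the other strand) and the E-box that Snail and Zeb repressors can bind (CAGGTG, or CACCTG on the other strand).
Cldn6: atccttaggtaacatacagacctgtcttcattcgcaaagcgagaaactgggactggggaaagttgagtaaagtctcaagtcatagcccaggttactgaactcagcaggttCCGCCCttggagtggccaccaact
Cldn7: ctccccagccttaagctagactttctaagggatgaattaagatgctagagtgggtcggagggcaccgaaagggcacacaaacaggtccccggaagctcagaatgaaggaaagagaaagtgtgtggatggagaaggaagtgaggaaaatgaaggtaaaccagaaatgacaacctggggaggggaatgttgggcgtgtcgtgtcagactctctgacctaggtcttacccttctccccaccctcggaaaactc
Ocln: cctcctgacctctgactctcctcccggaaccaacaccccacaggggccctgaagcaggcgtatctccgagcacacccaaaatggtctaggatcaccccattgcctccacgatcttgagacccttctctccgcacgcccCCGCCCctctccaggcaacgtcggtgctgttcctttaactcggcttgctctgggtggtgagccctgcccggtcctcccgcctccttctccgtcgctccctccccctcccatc
Cldn4: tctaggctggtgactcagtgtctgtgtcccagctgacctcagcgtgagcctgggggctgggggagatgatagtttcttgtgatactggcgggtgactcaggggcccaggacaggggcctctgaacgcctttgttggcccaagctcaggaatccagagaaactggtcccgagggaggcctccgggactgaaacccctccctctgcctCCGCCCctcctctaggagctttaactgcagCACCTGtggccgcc

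Windows of the 250 bases before an annotated start were found for 9 of the 10 members, 11 windows in all since Cldn7 and Ocln have a pair of starts each, and Cldn8 had no entry. The GC box stood in 10 of the 11 windows, against 32.7% of all 32851 windows, and the E-box in 5 (those of Cldn4, Cldn6, F11r, the second start of Cldn7 and the second start of Ocln), against 17.2%. The E-boxes of Cldn4 and F11r lay before the earliest annotated start of the gene. Those of Cldn6, Cldn7 and Ocln lay past the earliest start, within the annotated gene, as did the whole Tjp1 window. None of the 11 held the forkhead letters TGTTTAC or TGTTTGC (7.29% of all windows), the grainyhead letters AACCGGTT (0.116%), the GATA letters AGATAA (9.99%) or the TATA box TATAAA (12.4%), searched on both strands. No 2 of these motifs overlapped. The letters G and C made up 51.2% to 69.2% of the member windows, against a median of 52.4% in all windows, and the pair of Ocln windows overlapped. The part of this in the GC box share was not tested. The E-box letters stood in windows of Cldn4, which was higher in d3ko than in d3con, and of Cldn6, F11r, Cldn7 and Ocln, which were lower. For Cldn7 and Ocln this was the window of the second start only. A match of letters is not a binding site, and the part of the E-box in these changes was not tested.

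Library totals ranged from 14142788 to 27278237 expected counts. Foxa2, the targeted gene, was at 0.07 to 0.19 TPM in all d0 and d3ko libraries, at 34.8 to 58.6 TPM in d3con, at 2.01 and 2.99 TPM in d2-FVFn and at 160 to 169 TPM in d2-FVFp, as the labels give it. Lists of markers of other cell types were summed per library. The pluripotency list (6 genes) stood at 13787 to 15663 TPM in d0 and 562 to 985 TPM in d3con, but at 15431, 2668 and 17364 TPM in d3ko replicates 1, 2 and 3. Dppa5a carried most of that sum, with 14200, 1867 and 15543 TPM in these 3 libraries, and it set replicate 2 apart, as did Zfp42 (309, 40.05 and 400.05 TPM) and Sox2 (89.3, 14.7 and 86.1 TPM). Pou5f1 (522.5, 501 and 944 TPM, under the 1335 to 1467 TPM of d0) and Nanog (254, 240 and 345 TPM) were alike in d3ko replicates 1 and 2. In d3con these genes set replicate 2 apart, with Pou5f1 at 63.5, 319 and 59.7 TPM and Nanog at 40.2, 246 and 42.5 TPM in replicates 1, 2 and 3. Nanog in d3con replicate 2 was thus within the d3ko range. The definitive endoderm list (6 genes) was at 764 to 957 TPM in d3con and 30.1 to 161 TPM in d3ko. Cer1 carried most of the d3con sum, with 544 to 548 TPM. In d3ko against d3con, Sox17, Foxa1 and Hhex were called lower by edgeR. Cer1 (adjusted p = 0.0501), Gata4 (0.0774) and Gata6 (0.108) were lower but not called. From d0ko to d3ko, Gata4 and Gata6 rose (log2 changes of 4.97 and 6.16, both called). Feeder fibroblast genes (10 genes) summed to 16.1 and 18.8 TPM in d0con, 46.0 and 158 TPM in d0ko, 72.8 to 322 TPM in d3con, 166 to 376 TPM in d3ko and 4.35 to 6.66 TPM in the doxycycline samples. Col1a1 and Col1a2 carried most of that sum in the d3 libraries. From d0ko to d3ko, Dcn (-2.63 ± 0.95) and Postn (-0.86 ± 1.05) had negative fitted log2 changes, and the other tested genes of the list had positive ones. The trophectoderm list (6 genes) reached 135 to 162 TPM in d3con, 19.6 to 67.6 TPM in d3ko and 96.7 to 168 TPM in d2-FVFp, against 9.68 to 16.5 TPM elsewhere. This was mostly through Krt7 and Eomes in d3con and through Krt7 in d2-FVFp, with Elf5 under 1 TPM in every library. In d3ko it was mostly through Eomes (44.8, 63.2 and 12.05 TPM), with Krt7 at 6.02, 3.22 and 5.50 TPM. Cdx2 of that list was at 7.44 and 7.29 TPM in d2-FVFp, above Eomes (2.98 and 3.23 TPM), and under 1 TPM in all other groups. The visceral endoderm list (6 genes) stayed at or under 14.4 TPM with Afp and Ttr under 1 TPM. Its gene Apoa1 was at 2.53 and 2.87 TPM in d2-FVFp, against 0 and 0.20 TPM in d2-FVFn. The endothelial list (6 genes, 9.27 to 86.5 TPM) rested mostly on Pecam1 and Kdr, with Emcn at 0 in every library. In sorted bulk samples, fewer cells of a type and less RNA per cell cannot be told apart.

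The levels of the members differed widely, already in undifferentiated ESCs. TPM, RSEM's transcript level scaled for gene length and library total, allows genes to be set side by side. In d0con, Cldn6 (122 ± 29.97 TPM, mean ± SD, n = 2) and F11r (107 ± 6.72) were the highest and lay within each other's spread. Cldn7 (60.2 ± 17.1) and Cldn4 (47.6 ± 2.60) followed, also within their spread, and then Tjp1 (21.1 ± 0.361). Cldn3 (5.09 ± 0.396) and Ocln (4.27 ± 1.13) were low and overlapped. In d3con the order was Cldn6 (592 ± 208, n = 3), Cldn7 (304 ± 7.15), F11r (192 ± 36.9), Tjp1 (41.3 ± 1.43), Cldn4 (25.0 ± 6.56), Ocln (22.6 ± 5.30) and Cldn3 (14.9 ± 13.7). In d3ko, Cldn7 (121 ± 34.7), F11r (94.1 ± 15.7), Cldn6 (84.2 ± 30.2) and Cldn4 (80.9 ± 44.3) had ranges that overlapped, ahead of Tjp1 (27.8 ± 8.05), Cldn3 (16.0 ± 6.05) and Ocln (6.28 ± 2.31).

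Cldn1, Cldn5 and Cldn8 were close to absent. Cldn5 had 0 to 18 expected counts per library, with its highest level, 1.33 TPM, in d2-FVFn replicate 1. Cldn1 had 0 to 31 counts and at most 0.92 TPM, in d2-FVFn replicate 2. Cldn8 had 0 to 3 counts per library, at or under the floor of 3 counts that a count of 0 allows. Too few libraries reached 1 CPM for these genes to be tested, except Cldn1 in the doxycycline samples, where 0.11 and 0.92 TPM in d2-FVFn stood against 0.33 and 0.70 TPM in d2-FVFp. Hence 7 of the 10 members were tested in the d0 and d3 samples and 8 in the doxycycline samples.

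**Figure D1:**
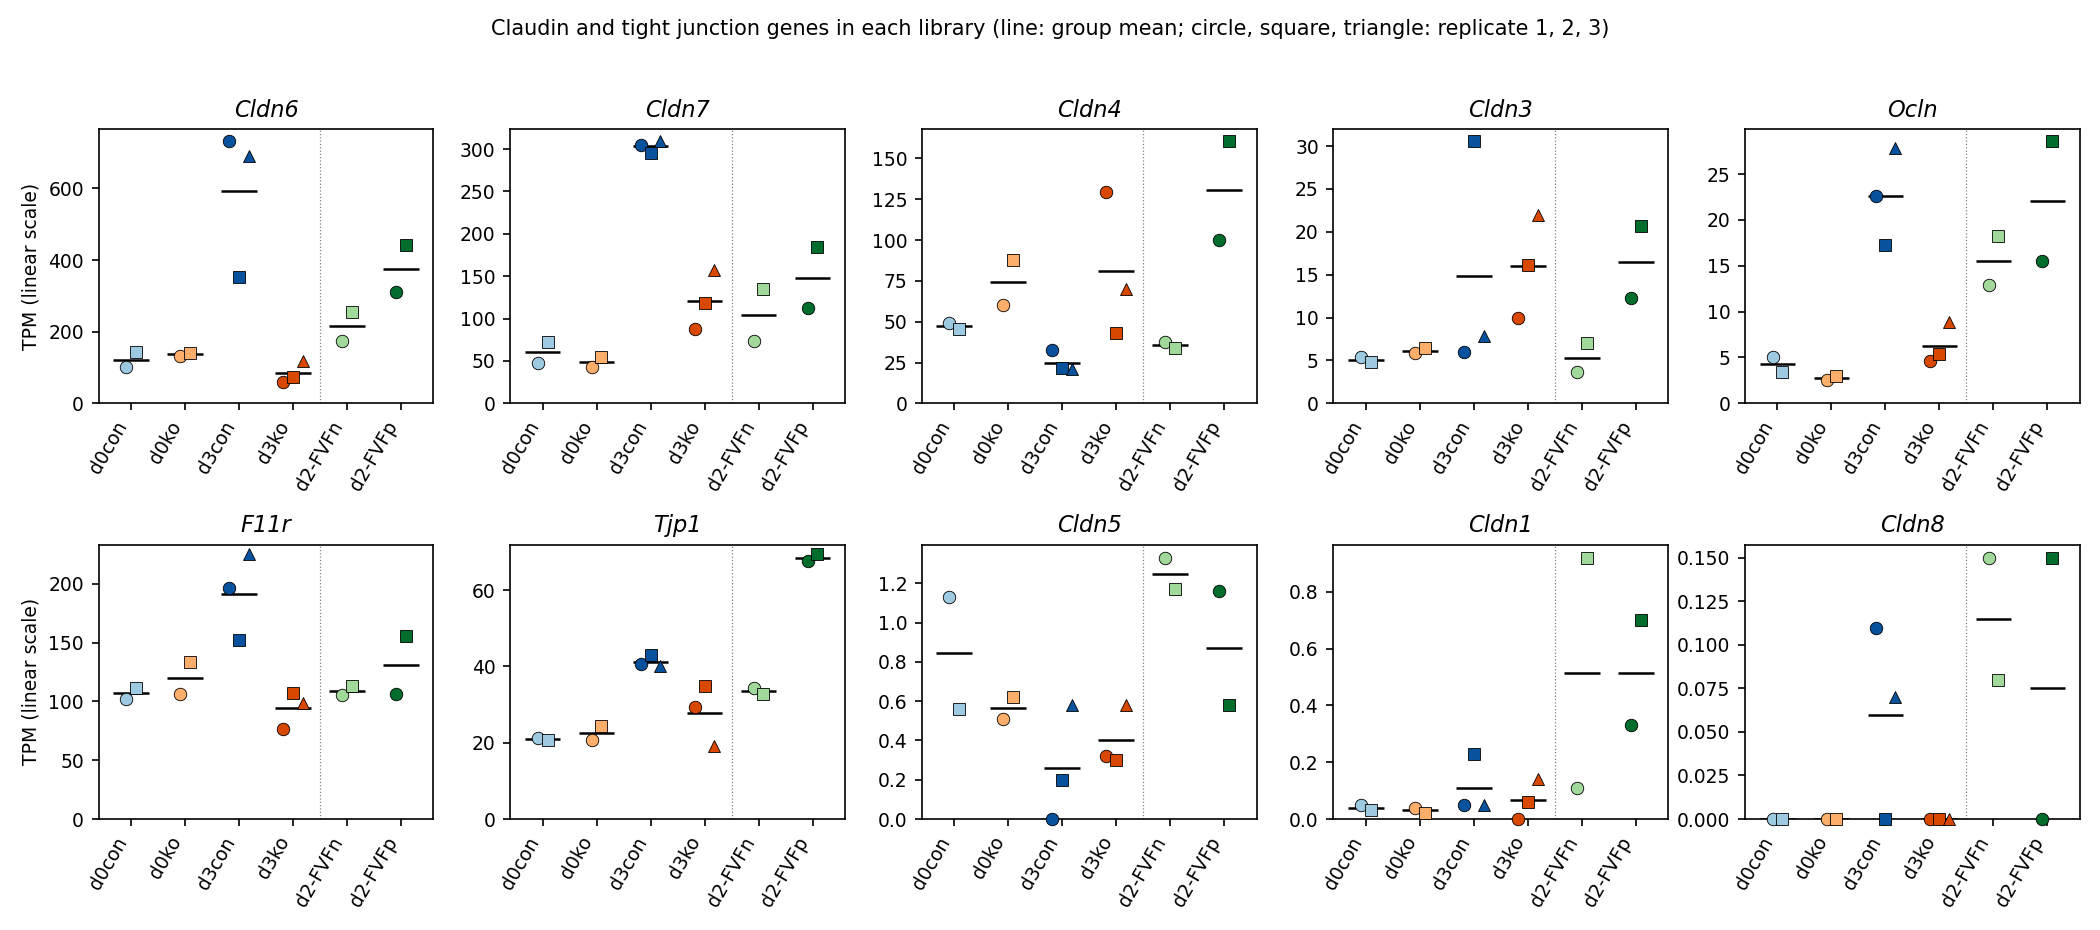
TPM of the 10 genes (y axis, linear, a scale of its own for each gene) in each library, by group (x axis), with a line at the group mean and the marker shape giving the replicate number. The 3 d3con libraries sit above all d0 and d3ko libraries for Cldn6, Cldn7, Ocln, F11r and Tjp1 and below them for Cldn4. The share of all genes with such an order is not given here.

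Cldn6 was the most abundant claudin in every group but d3ko, and it had the widest range of group means among the members, 2.78 on the log2(TPM + 1) scale. It stood at 101 and 143 TPM in d0con replicates 1 and 2, and at 732, 353 and 689.6 TPM in d3con replicates 1, 2 and 3. All d3con libraries were above both d0con libraries, and replicate 2, from the other clone, was the lowest of the 3. Cldn6 rose by 2.08 ± 0.39 on the log2 scale (SE, 4.23-fold, adjusted p = 0.00241 by edgeR's quasi-likelihood F test). In the knockout, 132.5 and 141 TPM at d0 were followed by 61.0, 73.2 and 118 TPM at d3, all below d0. The fitted change of -0.87 ± 0.36 did not pass the test (adjusted p = 0.0914), although it did without d3ko replicate 3 (-1.20, adjusted p = 0.0292). Between the day 3 groups, Cldn6 was 7.08-fold lower in d3ko (log2 change -2.82 ± 0.34, adjusted p = 0.00713), and the 2 groups did not overlap.

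Cldn7 rose from day 0 to day 3 in both genotypes. The d3con replicates lay within 296 to 310.0 TPM, against 48.1 and 72.3 TPM in d0con, and Cldn7 rose 4.40-fold (log2 change 2.14 ± 0.28, adjusted p = 0.000496). The d3ko replicates held 87.7, 118 and 157 TPM, against 43.0 and 54.3 TPM in d0ko, a 2.29-fold rise (log2 change 1.19 ± 0.26, adjusted p = 0.011). Its level in d3ko was 2.51-fold lower than in d3con (log2 change -1.33 ± 0.23, adjusted p = 0.0131), with no overlap, a call lost without d3con replicate 1 (adjusted p = 0.0508) or d3con replicate 3 (0.0637). The call of the rise in d3ko was lost without d0ko replicate 1 (adjusted p = 0.104) or d0ko replicate 2 (adjusted p = 0.0582), and without d3ko replicate 3 the change came to 0.95, under 2-fold.

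Cldn4 moved the other way. It stood at 49.5 and 45.8 TPM in d0con and at 32.5, 21.6 and 20.75 TPM in d3con, lower in all 3 libraries, and fell by 1.12 ± 0.42 on the log2 scale (adjusted p = 0.0482). This call was at the edge of the threshold and was lost without either d0con library (adjusted p = 0.16 and 0.126) or without d3con replicate 2 or 3 (0.115 and 0.134). With the clones paired by replicate number the change was -1.07 with an adjusted p of 0.0645. In d0ko Cldn4 was at 60.5 and 87.6 TPM, and in d3ko at 129.6, 43.1 and 69.9 TPM, on both sides of d0ko, with a fitted change of -0.03 ± 0.42. All d3ko libraries were above all d3con libraries, and Cldn4 was 3.22-fold higher in d3ko (log2 change 1.69 ± 0.39, adjusted p = 0.0276). The highest value was that of d3ko replicate 1, without which the change was 1.15 (adjusted p = 0.0702), and the call was also lost without any 1 of the d3con libraries (0.0614 to 0.116) or d3ko replicate 3 (0.06).

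Cldn3, the neighbour of Cldn4 on chromosome 5, had one library that decided its value at day 3. It was at 5.37 and 4.81 TPM in d0con and at 6.04, 30.6 and 7.90 TPM in d3con, where replicate 2 stood far above the other two. The d0ko libraries had 5.82 and 6.44 TPM and the d3ko libraries 9.91, 16.15 and 22.0 TPM, all above d0ko. Neither change over time passed the test (1.32 ± 0.66, adjusted p = 0.122, in the control and 1.21 ± 0.66, adjusted p = 0.187, in the knockout). Between d3ko and d3con the fitted change was 0.12 ± 0.56 (adjusted p = 0.913), and without d3con replicate 2 it was 1.19. As a description, the Pearson r of log2(TPM + 1) between Cldn3 and Cldn4 was 0.163 over the 14 libraries, which share cell lines and groups.

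Ocln, the first transmembrane protein of the tight junction to be identified, was low in ESCs and raised in d3con. It held 5.07 and 3.47 TPM in d0con and 22.6, 17.25 and 27.8 TPM in d3con, a 4.58-fold rise (log2 change 2.20 ± 0.35, adjusted p = 0.00121). In d3ko it reached 4.57, 5.36 and 8.90 TPM from 2.51 and 2.96 TPM in d0ko (2.05-fold, log2 change 1.04 ± 0.34, adjusted p = 0.0462). That call was also at the edge: with the clones paired the change was 0.78 (adjusted p = 0.0728), and it was lost without d0ko replicate 1 (adjusted p = 0.231), d0ko replicate 2 (0.15) or d3ko replicate 3 (0.0916). The day 3 groups did not overlap, and Ocln was 3.59-fold lower in d3ko (log2 change -1.85 ± 0.30, adjusted p = 0.0112), a call lost without d3con replicate 3 (-1.71, adjusted p = 0.0637).

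F11r and Tjp1 moved by smaller steps. F11r was at 102 and 112 TPM in d0con and at 197, 153 and 226 TPM in d3con (log2 change 0.64 ± 0.20, adjusted p = 0.0236, under 2-fold). In the knockout it went from 107 and 134 TPM to 76.7, 107 and 98.4 TPM (-0.52 ± 0.19, adjusted p = 0.0679). F11r was thereby 2.05-fold lower in d3ko than in d3con (-1.03 ± 0.18, adjusted p = 0.0126) with no overlap, and the change was just under 2-fold without d3con replicate 1 (-0.99), d3con replicate 3 (-0.94) or d3ko replicate 1 (-0.92). Tjp1 was at 21.3 and 20.8 TPM in d0con and 40.7, 42.9 and 40.2 TPM in d3con (0.77 ± 0.22, adjusted p = 0.0179, under 2-fold). The d0ko libraries had 20.6 and 24.4 TPM and the d3ko libraries 29.3, 35.0 and 19.1 TPM (0.14 ± 0.22, adjusted p = 0.662), and d3ko against d3con gave -0.58 ± 0.20 (adjusted p = 0.0921).

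Counted together, 3 of the 7 tested members rose from d0con to d3con (Cldn6, Cldn7, Ocln) and 1 fell (Cldn4), where 20.6% of all 13899 tested genes were called higher and 14.6% lower. From d0ko to d3ko, 2 rose (Cldn7, Ocln) and 0 fell, against 11.6% and 5.72% of all genes. In d3ko against d3con, 4 were lower (Cldn6, Ocln, Cldn7, F11r) and 1 higher (Cldn4), against 3.51% lower and 4.75% higher among all genes. The median log2 change of the 7 was 1.32, 0.14 and -1.03 in these comparisons, and that of all tested genes was 0.07, 0.07 and 0.02. The last comparison shares its d3 libraries with the other two. Pluripotency and endoderm marker levels differed between d3ko and d3con as given above, apart from Nanog in d3con replicate 2. The feeder fibroblast sum reached similar ranges in d3con and d3ko (72.8 to 322 and 166 to 376 TPM). The part of these cell types in the differences was not tested. Without d3ko replicate 2, the library with the lowest Dppa5a, Zfp42 and Sox2 levels of its group, the same count of 5 was called, and the change was -2.72 for Cldn6, -1.73 for Ocln, -1.31 for Cldn7, -1.12 for F11r and 1.99 for Cldn4. The count of 5 fell to 2 without d3con replicate 1 (Cldn6 and Ocln), to 1 without d3con replicate 3 (Cldn6) and to 3 without d3ko replicate 1 (Cldn6, Ocln and Cldn7), and the fit of d3ko and d3con alone called 1, Cldn6.

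**Figure D2:**
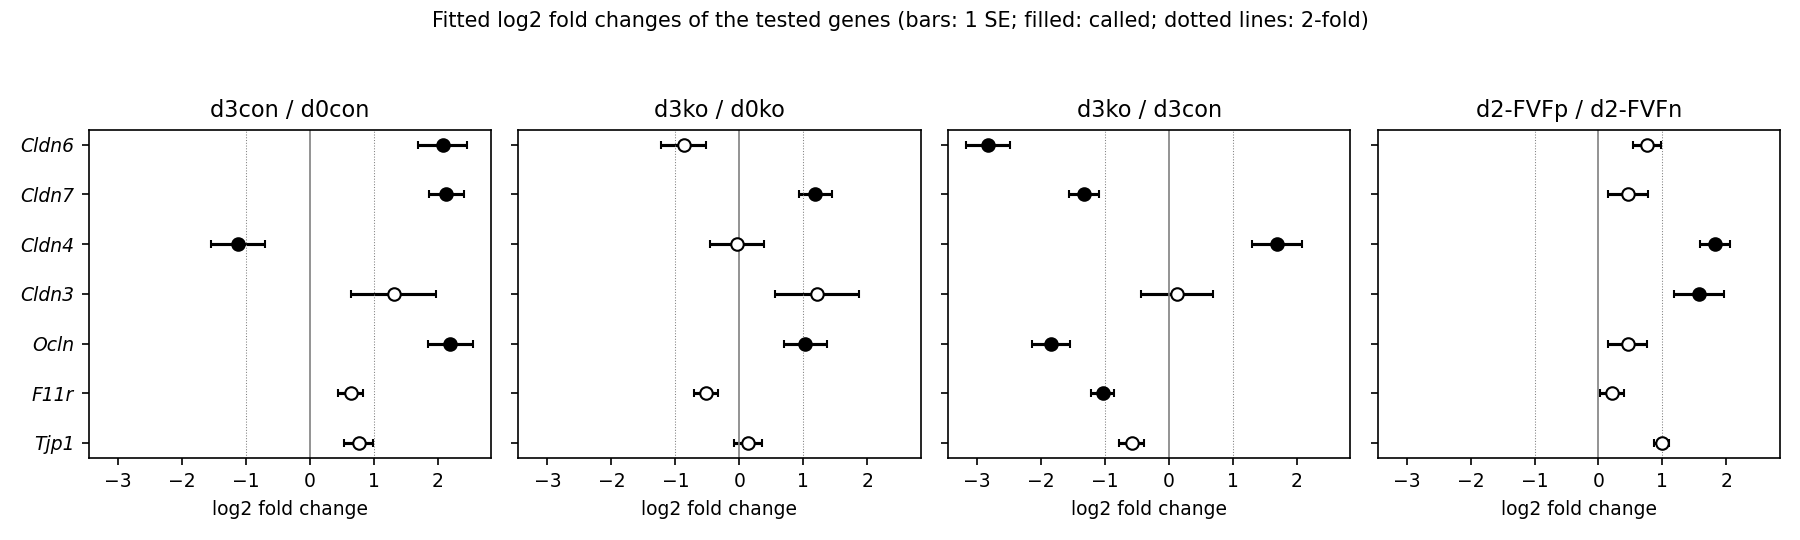
Fitted log2 fold change (x axis) of the 7 members tested in all comparisons (y axis), with bars of 1 SE, in 4 comparisons. Filled points were called at an adjusted p under 0.05 and more than 2-fold (dotted lines), among them Cldn6 at 2.08 in d3con over d0con and -2.82 in d3ko over d3con.

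Before differentiation no difference between the genotypes was called. None of the 7 members was called in d0ko against d0con, where 0% of all 13899 genes was called by edgeR and 195 had an unadjusted p under 0.05, none of them a member. DESeq2 on the same libraries also called 0 members. The log2 differences of the members were 0.13 ± 0.39 for Cldn6, -0.39 ± 0.28 for Cldn7, 0.59 ± 0.47 for Cldn4, 0.23 ± 0.70 for Cldn3, -0.69 ± 0.36 for Ocln, 0.05 ± 0.24 for Tjp1 and 0.13 ± 0.21 for F11r. With 2 libraries per group, differences of the size of these errors were not detectable. The feeder fibroblast sum was higher in both d0ko libraries (46.0 and 158 TPM) than in both d0con libraries (16.1 and 18.8 TPM), and its part in these values, and in the changes from d0 to d3, was not tested.

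Whether the course from day 0 to day 3 differed between genotypes was tested as the interaction of genotype and day. No member was called, and 0% of all genes was. Foxa2, the targeted gene, was not called either (-7.68 ± 0.87, adjusted p = 0.0544), so a course that differed could go uncalled in this test. The interaction was -2.95 ± 0.52 for Cldn6 (unadjusted p = 0.000273, adjusted p = 0.126), -1.16 ± 0.28 for F11r (adjusted p = 0.158), -1.16 ± 0.47 for Ocln (adjusted p = 0.328) and -0.94 ± 0.36 for Cldn7 (adjusted p = 0.307). These 4 of the 7 members, and 1840 of all 13899 genes, had an unadjusted p under 0.05, and DESeq2 on the same libraries called 2 members, Cldn6 (adjusted p = 1.62e-05) and F11r (adjusted p = 0.0144). Cldn6 was also called by edgeR without d3con replicate 2 (-3.22, adjusted p = 0.0121) or d3ko replicate 2 (-2.85, adjusted p = 0.0178), and F11r without d3ko replicate 2 (-1.25, adjusted p = 0.0295). A smaller rise of Cldn7 and Ocln in the knockout is therefore a description of their levels, and the difference between the rises was not called.

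The make-up of the claudin transcripts changed with the levels. The TPM of the 24 claudin genes in the tables summed to 225 to 287 in d0con, 263 to 317 in d0ko, 743 to 1112 in d3con (978 ± 204, n = 3) and 292 to 392 in d3ko (333 ± 52.3, n = 3). Cldn6 made up 44.5% to 50.4% of that sum in the 4 d0 libraries, 65.8%, 47.5% and 64.0% in d3con and 19.4%, 25.0% and 30.2% in d3ko. Cldn4 made up 16.0% to 27.6% at d0, 1.92% to 2.92% in d3con and 14.7% to 41.2% in d3ko. There were 16.3 to 33.2 Cldn6 transcripts for each Cldn4 transcript in d3con, 0.47 to 1.70 in d3ko and 1.61 to 3.12 at d0. The 3 d3ko libraries were the only ones of the 14 with fewer Cldn6 than Cldn7 transcripts (ratios of 0.619 to 0.754). These shares restate the levels above, with Cldn6 in both the share and the sum.

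**Figure D3:**
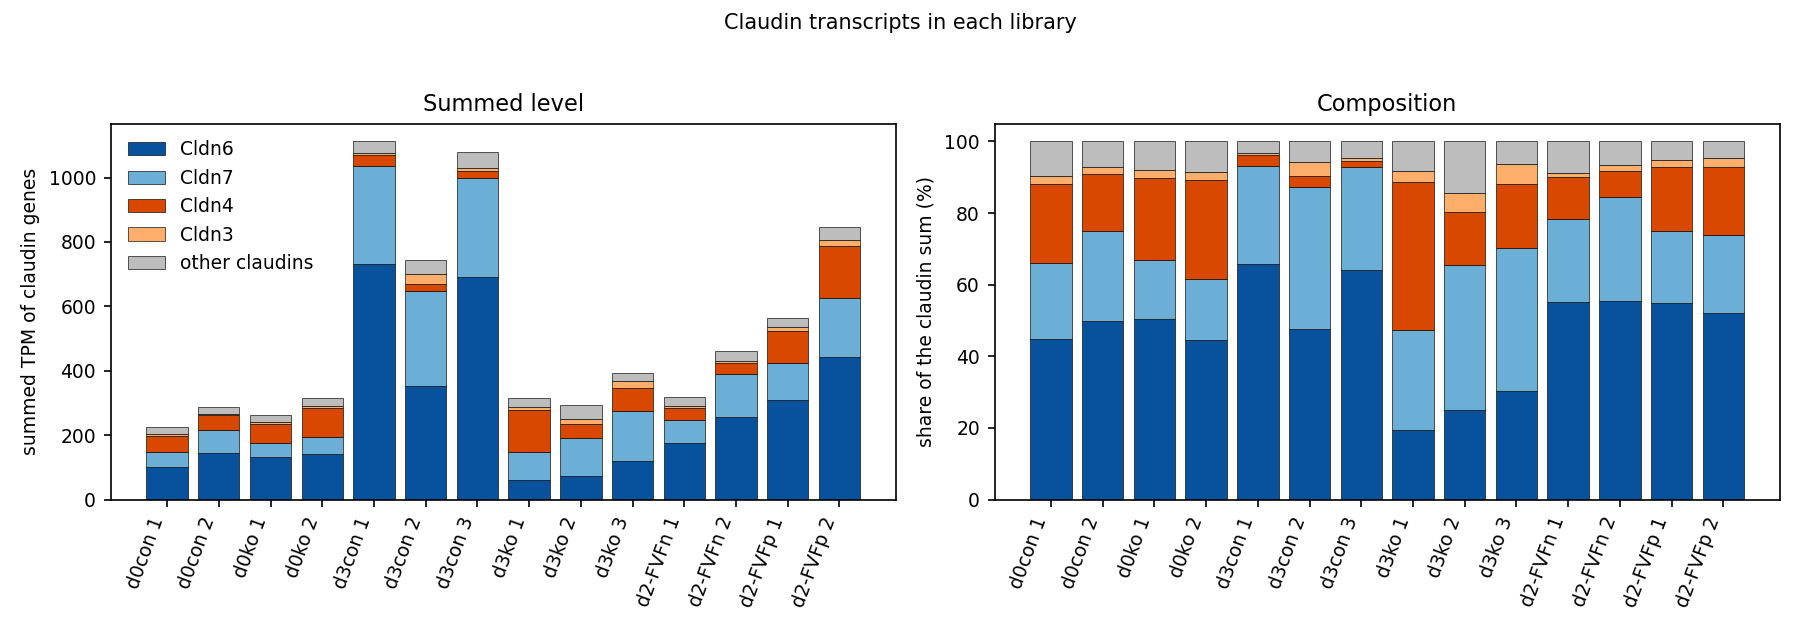
Claudin transcripts in each library (x axis), as the sum of TPM (left, y axis) and as shares of that sum in percent (right, y axis), for Cldn6, Cldn7, Cldn4, Cldn3 and the other claudins together. The d3con bars reach 743 to 1112 TPM with Cldn4 as a thin band, while the d3ko bars stop at 292 to 392 TPM with Cldn6 at 19.4% to 30.2%.

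Between Venus-negative and Venus-positive cells after doxycycline, the members called were the neighbours Cldn4 and Cldn3. Cldn4 was at 37.3 and 33.8 TPM in d2-FVFn and at 100.02 and 161 TPM in d2-FVFp, and was 3.55-fold higher (log2 change 1.83 ± 0.23, adjusted p = 0.00425). Cldn3 was at 3.66 and 6.99 TPM against 12.3 and 20.6 TPM, 2.98-fold higher (1.57 ± 0.39, adjusted p = 0.0359), a call that was lost without d2-FVFn replicate 1 (1.21, adjusted p = 0.16) or d2-FVFp replicate 2 (1.17, adjusted p = 0.0984). Tjp1 held 34.2 and 32.7 TPM against 67.8 and 69.4 TPM, a difference of 0.99 ± 0.12 (adjusted p = 0.00342), just under 2-fold. It was just over 2-fold without d2-FVFn replicate 1 (1.04), without d2-FVFp replicate 1 (1.02) and under a stricter count filter (mean over 50, 1.01). In these 3 genes, and in Cldn6 as given below, both Venus-positive libraries were above both Venus-negative ones. The share of all genes with this order is not given here.

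The members that rose in d3con were not called between the doxycycline groups. Cldn6 stood at 175 and 255 TPM in d2-FVFn and 310.1 and 441 TPM in d2-FVFp (0.76 ± 0.22, adjusted p = 0.0562), without overlap, and reached 1.01 (adjusted p = 0.013) without d2-FVFp replicate 1. Cldn7 (73.45 and 134 against 113 and 184 TPM), Ocln (12.9 and 18.2 against 15.5 and 28.6 TPM) and F11r (105 and 113 against 106 and 156 TPM) overlapped between the groups, with changes of 0.46 ± 0.31, 0.46 ± 0.30 and 0.22 ± 0.19. Cldn1 gave -0.05 ± 0.86. Hence 2 of the 8 tested members were called higher and 0 lower, where 6.96% of 12943 genes were higher and 1.47% lower, and the median change of the 8 was 0.61 against 0.01 for all genes. The trophectoderm list was higher in d2-FVFp as well (96.7 and 168 against 9.68 and 10.2 TPM), mostly through the simple epithelial keratin Krt7 (84.9 and 155 against 8.16 and 8.23 TPM). Cdx2 of that list was at 7.44 and 7.29 TPM in d2-FVFp against 0 and 0.18 TPM in d2-FVFn. The part of that list in these differences was not tested. The count was 4 without d2-FVFp replicate 1 and 1 without d2-FVFp replicate 2. Cldn4 was thus lower in d3con than in d0con and higher in d2-FVFp than in d2-FVFn, both times in the cells with more Foxa2, but the cell lines, media and days differ and the changes were fitted apart.

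Around the members, 74 of the 78 genes of a wider tight junction list were found in the tables, and 59 were tested at d0 and d3. From d0con to d3con, 22 of the 59 rose (20.6% of all genes) and 9 fell (14.6%), from d0ko to d3ko 8 rose (11.6%) and 7 fell (5.72%), and in d3ko against d3con 2 were higher (4.75% of all genes) and 6 lower (3.51%). The median log2 change of the 59 was 0.48, 0.25 and -0.29 in these comparisons, beside the medians of all genes given above. In the doxycycline samples 4 of 58 were higher (6.96% of all genes, about the same share) and 2 lower (1.47%), with a median of 0.22. Of the 8 calls in d3ko against d3con, that of Marveld2 held with any single library left out, while the other 7 were lost without d3con replicate 1 (adjusted p of 0.0503 to 0.105) and without d3con replicate 3 (0.0616 to 0.118).

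Among the transmembrane partners, Marveld2, which seals the corners where 3 cells meet, was low outside d3con and d2-FVFp. It stood at 3.33 and 3.96 TPM in d0con, 24.7, 19.4 and 26.5 TPM in d3con and 2.41, 5.90 and 3.54 TPM in d3ko. It rose in d3con (2.51 ± 0.39, adjusted p = 0.00103) and was 6.08-fold lower in d3ko (-2.60 ± 0.33, adjusted p = 0.00726), and in d2-FVFp it was 2.60-fold higher (1.38 ± 0.36, adjusted p = 0.0406), a call lost without d2-FVFn replicate 1 (0.178) or d2-FVFp replicate 2 (0.0804). Jam2, an adhesion molecule related to F11r, went the opposite way, with 30.6 and 24.2 TPM in d0con, 1.04, 0.16 and 0.74 TPM in d3con and 35.9, 2.44 and 32.0 TPM in d3ko (-5.57 ± 1.01 over time in the control, adjusted p = 0.00214, and 5.15 ± 0.97 in d3ko against d3con, adjusted p = 0.0158). The low value was that of d3ko replicate 2, the library in which Dppa5a, Zfp42 and Sox2 were also lower, and the part of that difference in the value was not tested. Esam, an adhesion molecule of endothelium and platelets, fell in both genotypes (-5.53 ± 1.11, adjusted p = 0.00337, and -3.59 ± 1.02, adjusted p = 0.0272), although in the knockout the call was lost without d0ko replicate 1 (0.123), d0ko replicate 2 (0.0843) or d3ko replicate 3 (0.0601). Ildr1, an angulin of tricellular contacts, fell in d3con (-1.73 ± 0.48, adjusted p = 0.0146, lost without d0con replicate 2 at 0.0734 and without d3con replicate 1 at 0.0506) and rose in d2-FVFp (1.80 ± 0.20, adjusted p = 0.00299). Jam3 rose in d3ko over d0ko (1.11 ± 0.36, adjusted p = 0.0448), a call lost without any one of d0ko replicate 1, d0ko replicate 2, d3ko replicate 1 and d3ko replicate 2 (0.0846 to 0.228).

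Of the other claudins, 4 reached a mean of 1 TPM in some group. Cldn23 was listed at 0 in both d0con libraries, at 5.53, 3.98 and 7.72 TPM in d3con (called, adjusted p = 0.00345) and at 0.12, 1.51 and 0.26 TPM in d3ko, which was not called against d3con. Cldn12 was at 13.6 and 14.3 TPM in d0con and 26.3 to 36.5 TPM in d3con (1.03 ± 0.29, adjusted p = 0.0159, at the 2-fold limit and lost without d0con replicate 1 or 2 or d3con replicate 2 or 3), with d3ko at 17.8 to 38.8 TPM around them. Cldn10 was at 0.14 and 0.48 TPM in d2-FVFn and 3.68 and 4.38 TPM in d2-FVFp, 13.1-fold higher (3.71 ± 0.65, adjusted p = 0.0122). Cldn9, next to Cldn6, stayed between 0.44 and 9.61 TPM and was called in no comparison (4.04, 0.60 and 4.06 TPM in d3con, below the 5.35 and 6.31 TPM of d0con). The symbol Cldn25 in the tables carries transcripts of the claudin domain gene Cldnd1, is not counted among the claudins above, and rose in d3con (1.43 ± 0.32, adjusted p = 0.00549).

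Of the 16 tested scaffold genes, 7 rose and 1 fell from d0con to d3con, and of the 13 polarity genes 5 rose and 0 fell, beside 20.6% and 14.6% of all genes. From d0ko to d3ko, 4 scaffold genes rose and 1 fell, and 1 polarity gene rose and 1 fell, beside 11.6% and 5.72%. Amot, a scaffold of tight junctions and of Hippo signalling, went from 0.56 and 0.71 TPM in d0con to 302, 136 and 361 TPM in d3con (8.51 ± 1.17, adjusted p = 0.000635) and from 0.81 and 0.84 TPM in d0ko to 32.8, 70.6 and 5.58 TPM in d3ko (5.27 ± 1.01, adjusted p = 0.00639). It was 7.43-fold lower in d3ko than in d3con (-2.89 ± 0.73, adjusted p = 0.0375) and 4.05-fold higher in d2-FVFp than in d2-FVFn (2.02 ± 0.42, adjusted p = 0.0198), the latter lost without d2-FVFn replicate 1 (0.105) or 2 (0.0508). The multi-PDZ scaffold Inadl, also called Patj, and its partner in the Crumbs complex Mpp5, also called Pals1, were both lower in d3ko than in d3con (-1.36 ± 0.27, adjusted p = 0.0188, and -1.09 ± 0.26, adjusted p = 0.0289). Inadl rose in both genotypes (2.38 ± 0.33, adjusted p = 0.000675, and 1.08 ± 0.31, adjusted p = 0.0296), and so did its paralogue Mpdz (3.30 ± 0.67, adjusted p = 0.00354, and 3.14 ± 0.67, adjusted p = 0.00945). In the knockout the rises of Amot, Inadl and Mpdz were lost without d0ko replicate 1 (0.0691, 0.187 and 0.0883) or replicate 2 (0.0581, 0.108 and 0.0685), and that of Inadl came to 0.65 without d3ko replicate 2. In d3ko over d0ko, Arhgef2, an exchange factor held at junctions by cingulin, rose (1.48 ± 0.24, adjusted p = 0.00335), and without d0ko replicate 1 its adjusted p was 0.05. None of the 6 genes for claudin partners and membrane proteases, such as Epcam and St14, was called in d3ko against d3con, beside 4.75% of all genes higher and 3.51% lower. In d3con 1 of the 6 rose, beside 20.6% of all genes. It was the protease Prss8 (1.05 ± 0.19, adjusted p = 0.0022, and 0.99 without d3con replicate 1), named after its value was seen. Prss8 was at 31.4 to 44.0 TPM in d3ko and 68.3 to 80.1 TPM in d3con (-0.94 ± 0.17, adjusted p = 0.014, just under 2-fold).

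**Figure D4:**
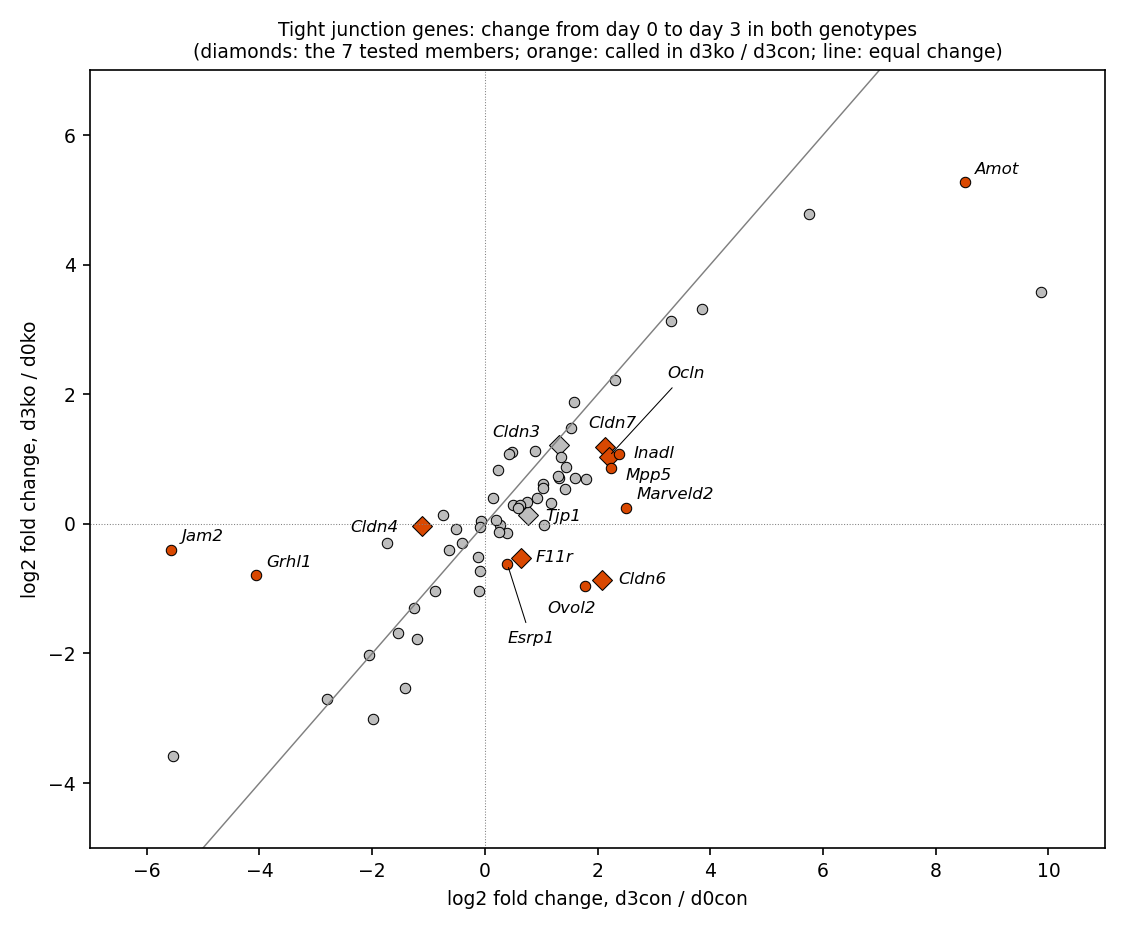
Log2 fold change from day 0 to day 3 in the control (x axis) and in the knockout (y axis) for the tested tight junction genes, with the 7 tested members as diamonds, genes called in d3ko over d3con in orange and a line of equal change. Cldn6 (2.08 and -0.87) and Ovol2 lie in the quadrant of a rise in the control and a fall in the knockout. With smaller changes, F11r (0.64 and -0.52), Esrp1, Prss8, Elf3, Spint1 and Llgl1 lie there too, and none of these falls was called. Marveld2, Ocln and Cldn7 lie below the line.

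Transcription factors that govern epithelial genes were split. Ovol2, a repressor of mesenchymal genes, was at 8.91 and 7.56 TPM in d0con, 44.9, 13.8 and 41.5 TPM in d3con, 6.72 and 7.65 TPM in d0ko and 3.48, 2.61 and 6.35 TPM in d3ko. It was 7.64-fold lower in d3ko than in d3con (-2.93 ± 0.50, adjusted p = 0.0126), and as in Cldn6 d3con replicate 2 was the lowest of its group. Grhl2, an activator of junction genes including claudins, fell in both genotypes (-2.06 ± 0.26, adjusted p = 0.00046, and -2.03 ± 0.26, adjusted p = 0.00148) and was lower in d2-FVFp as well (-2.07 ± 0.19, adjusted p = 0.00184). In d3ko over d0ko, Grhl3 (-1.68 ± 0.34, adjusted p = 0.00766) and the splicing regulator Esrp2 (-2.54 ± 0.49, adjusted p = 0.00675) fell as well, Grhl3 not without d0ko replicate 2 (0.0633). Grhl1 fell in d3con (-4.06 ± 0.64, adjusted p = 0.00115). The following were chosen after their values were seen, since they complete the small counts. Grhl1, at 4.39, 1.01 and 6.33 TPM in d3ko against 0.36 to 0.61 TPM in d3con, was higher in d3ko (3.14 ± 0.60, adjusted p = 0.0165). Esrp1 was lower in d3ko (-1.02 ± 0.19, adjusted p = 0.0159), and Ovol1 was lower in d2-FVFp (-2.48 ± 0.42, adjusted p = 0.0112). Of the 12 regulators, 4 rose and 5 fell in d3con, beside 20.6% and 14.6% of all genes. The 4 were Ovol2 (1.77 ± 0.55, adjusted p = 0.0242) and the repressors of epithelial genes Snai1 (2.31, adjusted p = 0.0467), Zeb1 (1.59, adjusted p = 0.0138) and Zeb2 (5.75, adjusted p = 0.000994), of which Zeb2 alone kept its call without either d0con library. Zeb1 (2.33 to 3.03 TPM) and Zeb2 (1.69 to 3.40 TPM) were low in d3con. From d0ko to d3ko 2 regulators rose and 4 fell, beside 11.6% and 5.72% of all genes. The 2 were Zeb1 (1.88 ± 0.44, adjusted p = 0.0129, kept in 11 of 15 alternatives) and Zeb2 (4.79 ± 0.77, adjusted p = 0.0032, kept in all 15). Snai1 was not called there (2.22 ± 0.83, adjusted p = 0.0703).

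The 5 genes most like Cldn6 over the 14 libraries, out of 12590 tested in both fits, were Rab15 (Pearson r of log2(TPM + 1) of 0.949), Ovol2 (0.948), Spink3 (0.942), Fam174b (0.926) and Slc25a4 (0.924). In each of them d3con replicate 2 lay below replicates 1 and 3, as in Cldn6, and for Spink3 the 3 values were 1289, 70.9 and 631 TPM. Among the members, F11r (0.878) and Ocln (0.835) came closest to Cldn6, and Cldn4 had a negative r of -0.363. These are descriptions over libraries that share cell lines and groups.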

How the data were processed

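The authors aligned single-end reads of low-input libraries (SMART-Seq v4 cDNA, not stranded) to mm10 with STAR and quantified genes with RSEM; versions are not given in the sources used here. The deposited tables hold, for each library alone, expected counts (RSEM's estimated counts, unscaled) and TPM, which the authors obtained from RSEM by scaling for gene length and library total. Effective lengths in the tables show 75-base reads in replicate 1 of d3con and d3ko and 50-base reads in the others. Groups and replicate numbers came from the sample titles, and clones from the names under which the tables were deposited, read with the study's methods. The study calls the samples of a d0 or d3 group biological replicates, and each such group holds 2 clones. Nothing in the labels says that the samples came from separate cultures, so p-values measure only the spread between these samples, which may be in part technical.

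Expected counts were rounded. Genes with at least 1 CPM in at least 2 libraries of a fit were tested with edgeR 4.0.16 (R 4.3.3, TMM scaling, quasi-likelihood F test, Benjamini-Hochberg adjustment over all genes tested), with the 10 d0 and d3 libraries in one fit (13899 genes) and the 4 doxycycline libraries in another (12943 genes). A gene was called at an adjusted p under 0.05 with a log2 fold change above 1 or below -1. The SE is the log2 fold change divided by the square root of F. Scripts were tested on simulated data. Alternatives (for the wider list chosen after seeing the data) were DESeq2 1.42.0, fits of 2 groups, median-of-ratios scaling, other filters, replicate and clone blocks and left-out libraries.

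Same-numbered libraries of d0con and d3con, and of d0ko and d3ko, come from the same clone, so the numbers pair them, although their deviations from the group means correlated at only -0.0396 to 0.0627. The members and all lists were chosen with earlier results of these data known. All 10 members are named. Of the wider list, genes called in a comparison with a mean of at least 5 TPM in the higher group are named, at most 5 in each direction by the size of the change, and other claudins with a mean of at least 1 TPM in any group. A gene that this rule names is not reported here. The symbols Cldn34a, Cldn34b1, Cldn34c1 and Cldn34d of the wider list were not matched.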

Additional observations from a re-analysis of the deposited data

Results flagged for a closer look

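The interaction of genotype and day for Cldn6 was -2.95 ± 0.52 on the log2 scale (adjusted p = 0.126, edgeR). It is listed because every d3con library (353 to 732 TPM) was above both d0con libraries (101 and 143 TPM) while every d3ko library (61.0 to 118 TPM) was below both d0ko libraries (132.5 and 141 TPM). The same held for Ovol2, with an interaction of -2.73 ± 0.76 (adjusted p = 0.195), d3con at 13.8 to 44.9 TPM over d0con at 7.56 and 8.91 TPM, and d3ko at 2.61 to 6.35 TPM under d0ko at 6.72 and 7.65 TPM. Neither interaction passed the threshold over all genes, and the opposite movement of the libraries was not tested otherwise. The share of all genes with such a movement is not given here. Cldn6 was called without d3con replicate 2 (-3.22) or without d3ko replicate 2 (-2.85).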

How the results depend on the processing

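In d3con against d0con the count of 4 called members stayed at 3 or 4 under all alternatives, and in d0ko against d0con it stayed at 0. In d3ko against d0ko the count of 2 became 1 with the replicate block, with the clone block, without both day 3 libraries numbered 1 (the 75-base reads) and in edgeR on the 2 groups alone, 0 in DESeq2 against a 2-fold change, and 3 without both day 3 libraries numbered 2, where Cldn3 was called (1.23, adjusted p = 0.0405); single libraries left out gave 0 to 2. In d3ko against d3con the count of 5 became 0 without both libraries numbered 1, 1 in edgeR on the 2 groups alone and 1 in DESeq2 against a 2-fold change; single libraries left out gave 1 to 5. The interaction count of 0 became 2 in DESeq2 on the same libraries and 2 without both day 3 libraries numbered 2, with 0 to 2 when single libraries were left out. In the doxycycline samples the count of 2 became 1 in DESeq2 against a 2-fold change, with 1 to 4 when single libraries were left out. A test against a 2-fold change asks more than a threshold on the fitted change, and a fit of fewer libraries has a less certain spread. The cause of the other shifts was not tested. The fall of Cldn6 in d3ko against d3con was called in 14 of 15 alternatives and not without both libraries numbered 1 (-2.43, adjusted p = 0.111).

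The replicate block changed 2 calls, those of Cldn4 (d3con against d0con) and Ocln (d3ko against d0ko), and no other call of a member. Between d3ko and d3con the pairs correlated at 0.54, 0.294 and -0.0139, from different clones, and with the block the count stayed at 5, while Amot (adjusted p = 0.062) and Mpp5 (0.0597) were no longer called. It stayed at 0 at d0 and at 2 in the doxycycline samples, where the labels tie same-numbered libraries by the number alone (correlations 0.106 and 0.288).

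For the called genes of the wider list, whose alternatives were added after seeing the data, and for the members, 1214 values kept their side of the threshold and their direction, 207 fell below it and 13 rose above it. The 23 that turned direction were all of members not called. In d3ko against d0ko, Cldn4 (-0.03) was 0.0035 with a mean count of at least 50, 0.28 without both libraries numbered 2, and -0.56 to 0.28 with single libraries left out, and Tjp1 (0.14) was -0.040 without both numbered 2 and -0.042 to 0.35 with single libraries left out. Cldn3 in d3ko against d3con was -0.011 without both numbered 1 and -0.26 to 1.19 with single libraries left out. Its interaction (-0.11) was 0.084 with the replicate block, 0.13 with the clone block, 0.97 without both numbered 2 and -0.48 to 0.96 with single libraries left out. At d0, leaving out 1 library gave -0.11 to 0.41 for Cldn6, -0.055 to 0.15 for Tjp1 and -0.024 to 0.26 for F11r. In the doxycycline samples Cldn1 was 0.16 with the replicate block and -0.83 to 0.39 with single libraries left out, while Ocln ranged from -0.041 to 0.85 and F11r from -0.071 to 0.48, both lowest without d2-FVFp replicate 2.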
